A study of Drosophila melanogaster with 10 samples.

Results

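SL2 cells, a Drosophila line derived from embryos that resembles blood macrophages, were treated with the double-stranded RNA (dsRNA) covering positions 1321-1618 of Tip60, and were compared with cells mock-treated with dsRNA against eGFP, a jellyfish gene that flies lack. The comparison used 6 of the 10 arrays in the series: the 2 labelled with dsRNA 1321-1618 and the 4 labelled eGFP, chosen by those labels. The other 4 arrays came from cells given Tip60 dsRNA 190-807 or 603-1116, with 2 arrays each. Those dsRNAs overlap each other and, by their positions, share no sequence with 1321-1618. All cells were grown at 26°C with 10% serum, received 10 µg of dsRNA and were harvested on day 5, and each array was hybridized with labelled cRNA made from 5 µg of total RNA. SL2 is a single cultured line, so these data describe no tissue or animal. The labels do not state that replicate arrays were separate cultures, so the p-values below measure only how far these arrays differ, and that spread may be technical.

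Tip60 is the catalytic subunit of a chromatin complex that acetylates histones H2A, H2Av and H4 and, through the ATPase Domino, exchanges histone variants. In flies the complex is known for its part in transcription and in DNA repair. RNA interference works by cutting a long dsRNA into small RNAs that direct cleavage of matching transcripts, so a dsRNA from another stretch of the same transcript is a usual check on the reagent. The series asked which genes change when Tip60 is depleted.

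The deposited values were linear probe set signals, scaled by the authors so that each array had the same trimmed mean. Of the fly probe sets, 11261 exceeded a mean signal of 34.5 over the 10 arrays and were tested. The control and background signals moved with the comparison. Mean log2 signal of the hybridization spike-ins was 13.51 (13.44 to 13.57) on the dsRNA 1321-1618 arrays and 13.05 (12.57 to 13.33) on the eGFP arrays, and that of the poly-A spike-ins was 9.13 (9.12 to 9.13) and 8.56 (8.36 to 8.78). Fly probe sets below the filter differed in the same direction, with means of 3.97 and 3.53. Changes are therefore relative to the trimmed mean of each array. Forcing the spike-ins or the median of all probe sets to agree lowers every change by 0.40 to 0.57 on the log2 scale. The median change is then -0.52 to -0.34, against 0.05 as deposited, and these 3 settings are called the constant scalings below. In bulk RNA, fewer cells carrying a transcript and less of it per cell cannot be told apart.

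Tip60 itself was lower on both dsRNA 1321-1618 arrays. Its single probe set read 287 and 276 on those arrays, against 1339, 1315, 1163 and 1138 on the eGFP arrays. The groups lay far apart, and the 2 depleted arrays were nearly equal. Mean signal was 281 ± 8.0 (SD, n = 2) with dsRNA 1321-1618 and 1239 ± 103 (SD, n = 4) with eGFP, a log2 change of -2.14 (SE 0.21, adjusted p = 5.24e-06, limma with Benjamini-Hochberg adjustment over all probe sets tested). With dsRNA 190-807 and 603-1116 the change against the same eGFP arrays was -2.10 and -1.89. The difference of 1321-1618 from the mean of the other dsRNAs was -0.14, with a 95% interval of -0.59 to 0.30.

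**Figure D1:**
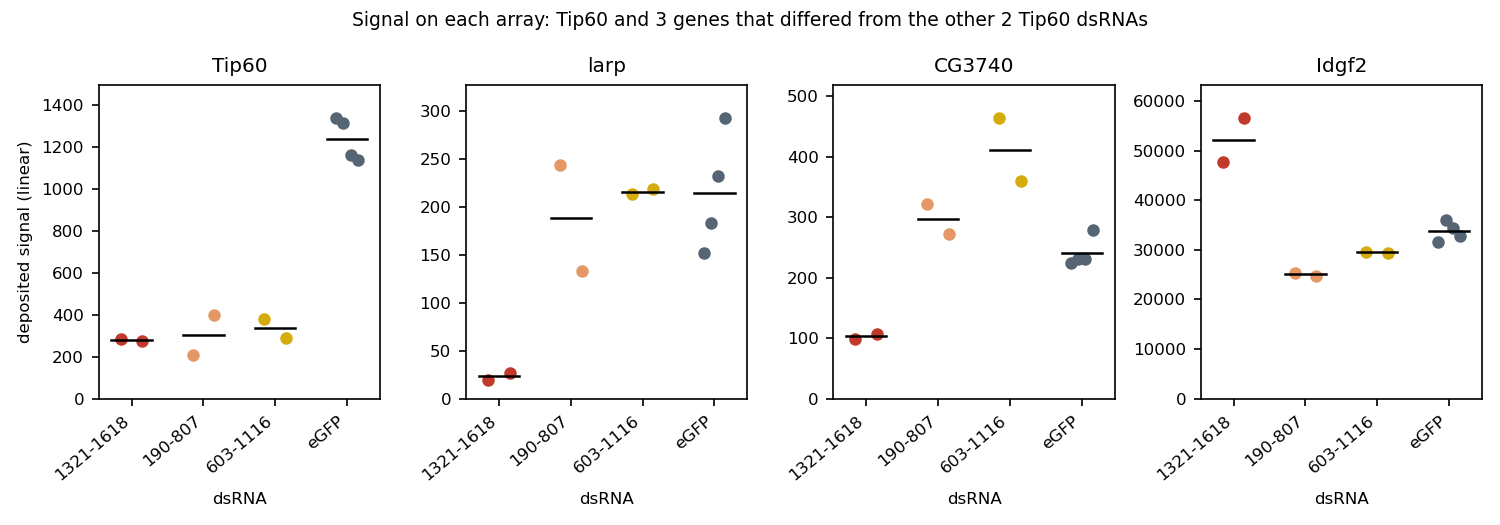
Deposited linear signal of Tip60, larp, CG3740 and Idgf2 on each of the 10 arrays, by dsRNA; points are arrays and horizontal lines are group means. Tip60 was 276 and 287 with dsRNA 1321-1618 and 1138 to 1339 with eGFP, whereas larp, CG3740 and Idgf2 differed between 1321-1618 and the other Tip60 dsRNAs.

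Among 13 measured members of the Tip60 complex, 2 rose (15.4%) and 3 fell (23.1%), with the targeted Tip60 among the falls. Over all genes, each by its brightest probe set, 11.8% were called higher and 14.6% lower. rept, a Reptin-type ATPase shared with other complexes, read 3166 and 3729 with dsRNA 1321-1618, against 4789, 5105, 5100 and 4593 with eGFP, a change of -0.51 (SE 0.08, adjusted p = 0.000475). Both depleted arrays were below all eGFP arrays. Gas41, a YEATS-domain subunit, changed by -0.30 (adjusted p = 0.0297), and both arrays were again the lowest. dom, the Domino ATPase, changed by 0.37 (adjusted p = 0.0312) on its brightest probe set, while its other 2 probe sets, at 0.29 and 0.01, were not called. Eaf6, an accessory subunit, changed by 0.42 (adjusted p = 0.0386). The changes of dom and Eaf6 turned negative when arrays were scaled to the spike-ins, and that of dom also when they were centred on the median. dom and Eaf6 were no longer called without replicate 1 of dsRNA 1321-1618 or without eGFP array 2-2, 3-1 or 3-2, and Gas41 without either dsRNA 1321-1618 array or without eGFP array 3-1 or 3-2.

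Across the array, 1255 probe sets were higher and 1416 lower in dsRNA 1321-1618 cells than in eGFP cells, which was 11.1% and 12.6% of those tested. The changes were mostly small, with a median of 0.63 for those that rose and -0.43 for those that fell. Of 377 probe sets that changed at least 2-fold, 321 rose and 56 fell as deposited. Quantile scaling gave 221 and 100. Median-centred arrays gave 175 rises and 413 falls, those scaled to hybridization spike-ins 127 rises and 473 falls, and those scaled to poly-A spike-ins 131 rises and 941 falls. Without replicate 1 of dsRNA 1321-1618, 701 probe sets rose and 806 fell. In terms of genes, 1001 rose and 1229 fell, with 4 counted in both through different probe sets. The calls split by brightness. The dimmest class tested, with a mean signal of 34.5 to 91.1, gave 52 rises and 14 falls, and its median change was 0.45. Probe sets with a mean signal of 91.1 to 750.9 gave 356 rises and 161 falls, and those of 752 to 2298 gave 323 rises and 564 falls. The brightest class gave 524 rises and 677 falls, with a median change of -0.03. Dim probe sets thus read higher as a class with dsRNA 1321-1618, called or not.

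**Figure D2:**
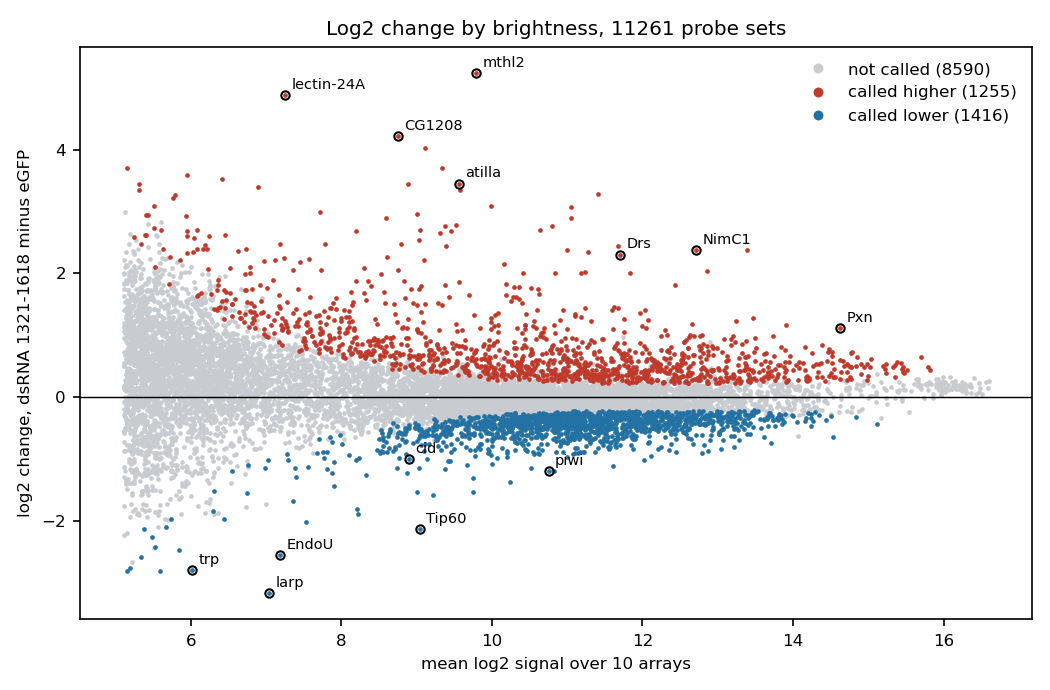
Log2 change of dsRNA 1321-1618 against eGFP (vertical axis) by mean log2 signal over 10 arrays (horizontal axis) for 11261 probe sets; red points were called higher (1255), blue points lower (1416), and grey points were not called. The tallest rises, led by mthl2 at 5.24, exceeded the deepest falls, led by larp at -3.17.

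Of the called probe sets, 2662 had both dsRNA 1321-1618 arrays outside the range of the 4 eGFP arrays and 9 overlapped, while 44.6% of all probe sets tested did not overlap. Where a called gene is described above or below as having no overlap, this therefore adds little to its call. An exact permutation test on a single probe set could not reach 0.05, since 2 of 6 arrays can be chosen in only 15 ways. The 2 dsRNA 1321-1618 arrays differed from each other by a median of 0.19 on the log2 scale, and 9.98% of probe sets differed between them by 2-fold or more. The split between rises and falls depended on scaling. With arrays centred on the median, scaled to the hybridization spike-ins or scaled to the poly-A spike-ins, 8.21%, 12.04% and 4.30% of the calls were rises, against 47.0% as deposited.

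The genes that rose most included surface receptors, secreted enzymes and membrane channels. mthl2, a G-protein-coupled receptor of the Methuselah family, read 4102 and 3688 with dsRNA 1321-1618, against 136, 81.8, 78.8 and 127 with eGFP, a log2 change of 5.24 (SE 0.20, adjusted p = 2.58e-10). lectin-24A, a secreted C-type lectin, read 549 and 533, against 14.2, 23, 7.91 and 43.6 with eGFP, a change of 4.88 (SE 0.49, adjusted p = 6.43e-06). Of these genes, mthl2 was measured well above the filter in both groups, whereas the eGFP mean of lectin-24A lay below it. CG1208 read 1659 and 1470, against 63.6 to 121 with eGFP, a change of 4.22. CG34054 changed by 4.02 and CG10764 by 3.71, with signals of at least 1525 on both dsRNA 1321-1618 arrays and at most 161 on the eGFP arrays. Groups without overlap were a condition for choosing these genes.

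atilla, a Ly6-type surface protein used as a marker of lamellocytes, the large encapsulating blood cells, read 2092 and 2406 with dsRNA 1321-1618, against 226, 240, 185 and 174 with eGFP. Its change was 3.45 (SE 0.14, adjusted p = 6.74e-10). Ance-5, a relative of angiotensin-converting enzyme, read 1208 and 1322, against 69.3 to 164 with eGFP, a change of 3.44. Its relative Ance, a secreted peptidase, was brighter and rose by 2.04, with 13246 and 14041 against 3050 to 3683. Both enzymes were therefore higher on both depleted arrays, and they were the 2 called members of a family of 6 measured.

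P5CS, which makes the proline precursor pyrroline-5-carboxylate, Cyp4s3, a cytochrome P450, and CG13937 rose by 3.70, 3.59 and 3.53 from eGFP means below the filter. Drip, an aquaporin, read 404 and 301 with dsRNA 1321-1618, against 53.3, 61.8, 58 and 6.18 with eGFP, a change of 3.40. One eGFP array, 3-2, was far below the other 3 for Drip, and without it the change was 2.60. Eglp2, a glycerol-transporting channel of the same family, changed by 3.35, with an eGFP mean of 10.6. In all, 5 of the 12 genes had an eGFP mean below the filter, so the size of their change rests on signals near the bottom of the scale. P5CS and Eglp2 were not called without either dsRNA 1321-1618 array.

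The genes that fell most, which include Tip60, were mostly dimmer, and 8 of the 12 had a mean below the filter on the dsRNA 1321-1618 arrays. Those 8 passed the filter only through the other arrays. EndoU, a uridine-directed endoribonuclease, was measured in both groups: it read 45.2 and 92.1, against 324, 347, 439 and 418 with eGFP, a change of -2.55 (SE 0.35, adjusted p = 0.000116). A second probe set of EndoU fell by 1.82 on the log2 scale. CG12910 read 92.5 and 90.8, against 279 to 553 with eGFP, and fell by 2.03 on the log2 scale. For both genes every eGFP array was the brighter, which the choice of these genes required.

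trp, the light-activated calcium channel of photoreceptors, read 11.3 and 29.3 with dsRNA 1321-1618, against 154, 110, 106 and 142 with eGFP, a change of -2.80 (adjusted p = 0.00168). CG15820 changed by -2.81 on one probe set and -0.82 on a brighter one, both called. tmod, the actin-capping protein tropomodulin, changed by -2.48 on a dim probe set and by -0.14 (adjusted p = 0.274) on a bright one that read 3260 and 3357, against 3474 to 3926 with eGFP. The 2 probe sets of tmod thus disagree. CG32847, CG13062, CG31820, Cpr30F, a cuticle protein, and dob, a lipase of the brummer family, changed by -2.77 to -1.98, with adjusted p of 0.0224 to 0.0345. Of these, CG32847 was lost whichever of the 6 arrays was left out, and CG13062, CG31820, Cpr30F and dob were lost without several of them in turn. The dim probe set of CG15820 was lost without replicate 1 of dsRNA 1321-1618 or eGFP array 2-2, and that of tmod without either dsRNA 1321-1618 array or eGFP array 3-2. The 2 dsRNA 1321-1618 arrays differed for several of these dim genes: leaving out replicate 1 or replicate 2 gave -2.11 or -3.48 for trp, -2.20 or -3.41 for CG15820, -1.20 or -3.34 for CG13062 and -3.10 or -0.85 for dob.

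**Figure D3:**
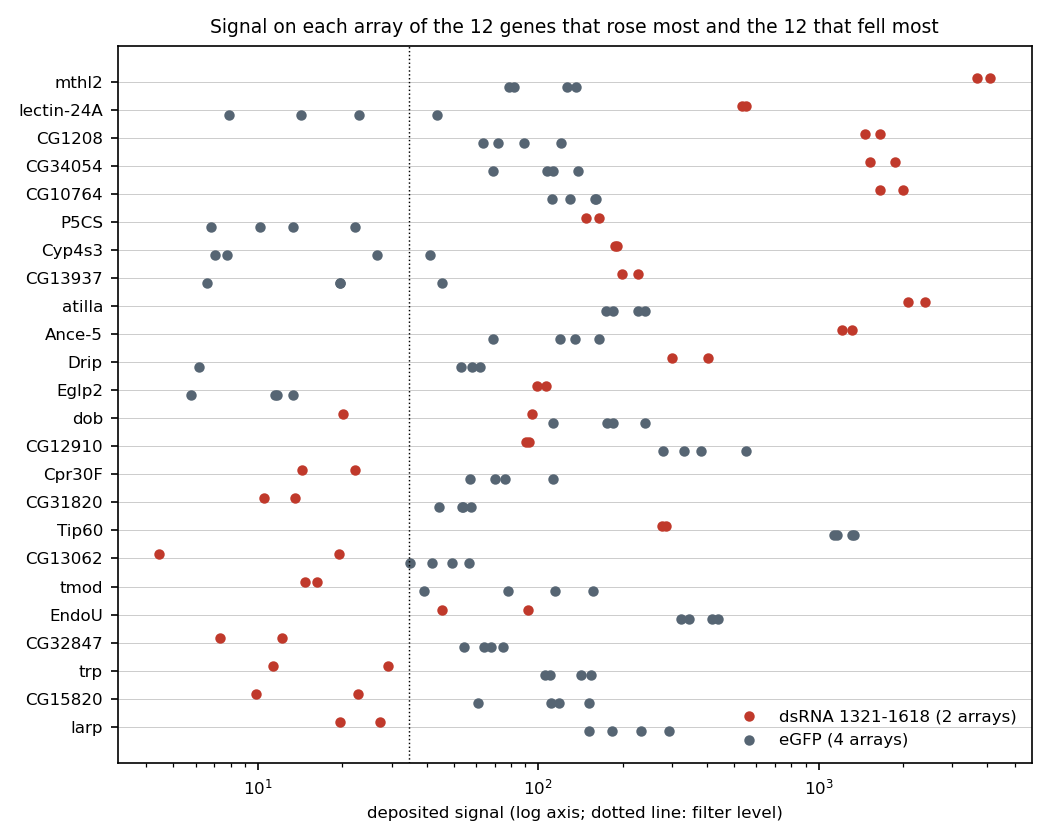
Deposited signal on each array (log axis) for the 12 genes that rose most, at the top, and the 12 that fell most; red points are the 2 dsRNA 1321-1618 arrays, grey points the 4 eGFP arrays, and the dotted line is the filter at 34.5. The genes were chosen among those with no overlap between groups, and many of the falls end left of the dotted line while the rises of mthl2, CG1208, CG34054, CG10764, atilla and Ance-5 pass 1000.

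Genes were also ranked in signal units rather than folds, a ranking that by its nature picks abundant transcripts. Pxn, the extracellular peroxidase peroxidasin, read 32914 and 36166 with dsRNA 1321-1618, against 13957, 18164, 16416 and 15556 with eGFP, a change of 1.11 (SE 0.13, adjusted p = 2.17e-05). He, the blood-cell surface glycoprotein Hemese, read 34510 and 35381, against 18741 to 23593 with eGFP, a change of 0.73. Groups without overlap were again a condition for the choice, and He was not called under the constant scalings. RpL27 and RpL29, ribosomal proteins, Arc1, a capsid-forming protein, pAbp, the poly(A)-binding protein, and Fer1HCH, a ferritin subunit, changed by 0.44 to 0.56, and all 5 turned negative when arrays were scaled to the poly-A spike-ins. RpL27, Arc1 and Fer1HCH were lost without replicate 2 of dsRNA 1321-1618, pAbp without replicate 1 and RpL29 without either, and eGFP arrays also decided RpL27 (3-2) and RpL29 (2-1, 2-2 or 3-1). The largest losses in signal were picked by the same ranking. fabp, a fatty-acid-binding protein, read 19282 and 20748, against 29057 to 32475 with eGFP, a change of -0.64. NHP2, a core protein of the RNPs that pseudouridylate ribosomal RNA, changed by -0.80 and Stip1, a chaperone organizer, by -0.65. The co-chaperone p23, the immunophilin Fkbp12, the proteasome subunit Prosbeta4, the complex I subunit ND-MLRQ and CG11267 changed by -0.75 to -0.32. ND-MLRQ and Fkbp12 were lost without either dsRNA 1321-1618 array or eGFP array 3-1 or 3-2, and Fkbp12 also without 2-2. p23 was lost without replicate 1 or eGFP array 3-2, and Prosbeta4 without replicate 1.

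Genes of cell division were lower. Each gene was represented by its brightest probe set, and over the 8290 genes tested this way 11.8% were called higher and 14.6% lower, with a median change of 0.02. Of 39 measured mitosis genes, 28 fell and none rose, with a median of -0.55. cid, the centromeric histone H3 variant, read 299 and 413 with dsRNA 1321-1618, against 705, 756, 744 and 632 with eGFP, a change of -1.01 (SE 0.17, adjusted p = 0.000565). Spc25, a kinetochore subunit, read 1545 and 1570, against 2788 to 2978, a change of -0.88 (SE 0.08, adjusted p = 2.05e-06). Spc105R, another kinetochore protein, glu, a condensin subunit, and fzy, an activator of the anaphase-promoting complex, changed by -0.83, -0.82 and -0.77. These genes were lower on both depleted arrays, and 11 mitosis genes did not pass the test.

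Of 37 measured DNA replication genes, 22 fell and none rose, with a median of -0.40. PolA2, of the polymerase alpha-primase complex, read 787 and 990, against 1491 to 1690 with eGFP, a change of -0.88. PolD2, of polymerase delta, changed by -0.74, PCNA, the sliding clamp, by -0.68, and the helicase subunits Mcm2, Mcm3, Mcm5 and Mcm6 by -0.67 to -0.53. Of 22 regulators of the G1/S step, 6 fell, including the kinase Cdk2 at -0.60 and lin-52, of the dREAM complex, at -0.72, which was lost without either dsRNA 1321-1618 array. Without replicate 1 of dsRNA 1321-1618 the replication count was 14 and the G1/S count 3, and without replicate 2 the G1/S count was 2 and Mcm3 was lost. Of 27 DNA damage genes, 4 fell and 2 rose, which is near the share over all genes. Msh6, a mismatch repair protein, changed by -0.55 and Gadd45, a stress-responsive gene, by 0.84, and none of the 27 was called higher under the constant scalings.

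Genes for making ribosomes were lower too. Of 40 measured genes of ribosome biogenesis and RNA polymerase I, 31 fell and 2 rose, with a median of -0.43. Polr1E, a subunit of RNA polymerase I, read 1640 and 1612 with dsRNA 1321-1618, against 2766, 2947, 3055 and 3245 with eGFP, a change of -0.88 (SE 0.08, adjusted p = 2.9e-06). Polr1A and Polr1B, its large subunits, changed by -0.64 and -0.54, and Fib, the nucleolar methyltransferase fibrillarin, by -0.44, which was lost without replicate 1 of dsRNA 1321-1618. By contrast, of 36 cytoplasmic ribosomal proteins 2 rose and none fell, and their median of 0.16 turned to between -0.41 and -0.24 under the 3 constant scalings and to -0.02 under quantile scaling. Of 71 mitochondrial ribosomal proteins 35 fell and none rose, with mRpS14 at -0.77 and mRpS35 at -0.73. Other parts of the translation machinery were near the share over all genes in only 1 direction. Of 32 aminoacyl-tRNA synthetases 5 fell (15.6%, against 14.6% over all genes) and none rose (against 11.8%). Of 36 translation factors 4 rose (11.1%) and 2 fell (5.6%).

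Of 26 proteasome subunits 16 fell and none rose, led by Prosbeta5, a catalytic subunit, at -0.52. Of 43 subunits of the respiratory chain and ATP synthase 18 fell and none rose, with ND-15 at -0.66. Of 33 spliceosome genes 14 fell and none rose, including LSm3 at -0.61 and SC35, a splicing regulator, at -0.60. These declines were shallow, with medians of -0.29, -0.21 and -0.23. Without replicate 1 of dsRNA 1321-1618 the counts of falls were 3 for the proteasome, 5 for the respiratory chain, 8 for the spliceosome and 16 for the mitochondrial ribosome. In glycolysis, Pgk and Gapdh1 fell by 0.76 and 0.62 on the log2 scale, and 2 of 15 genes rose against 4 that fell.

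Heterochromatin and trithorax genes were lower. Of 12 measured heterochromatin genes 6 fell and 1 rose, with a median of -0.36. HP4, a partner of heterochromatin protein 1, read 4284 and 4357 with dsRNA 1321-1618, against 7351, 6967, 7448 and 7500 with eGFP, a change of -0.76 (SE 0.07, adjusted p = 2.55e-06). The chromodomain proteins HP1b and HP1c changed by -0.52 and -0.45. Every eGFP array of HP4 and HP1b was above both depleted arrays. Of 24 trithorax and Brahma genes 10 fell and none rose, including Iswi, a remodelling ATPase, at -0.66, ash2 at -0.51 and brm, the Brahma ATPase, at -0.46. Without replicate 1 of dsRNA 1321-1618 that count was 5. Some other chromatin groups were near the share over all genes. Of 11 deacetylase genes 2 fell and 1 rose, and of 12 other acetyltransferase genes 2 fell and 1 rose. Of 16 Polycomb genes 2 fell and 1 rose. Histone variants and chaperones had a larger share of falls, with 5 of 16 lower and 1 higher and a median of -0.12. HDAC1, a histone deacetylase, and its corepressor CoRest changed by -0.63 and -0.58, and Hat1, an acetyltransferase of newly made histones, by -0.61. None of the 7 dosage compensation genes was called.

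Of 19 measured genes of the piRNA and siRNA pathways, 8 fell and 1 rose. piwi, a nuclear Argonaute protein, read 1350 and 1063 with dsRNA 1321-1618, against 2867, 2532, 3090 and 2560 with eGFP, a change of -1.20 (SE 0.17, adjusted p = 0.000142). aub, a cytoplasmic Argonaute of the germline, read 2251 and 2619, against 4064 to 4551, a change of -0.81, and squ changed by -0.92. Dcr-2, the enzyme that cuts long dsRNA, changed by -0.38. qin, a piRNA factor of the germline, changed by 0.99 on its brightest probe set and by 0.52 (adjusted p = 0.596) on another. The call of qin was lost without either dsRNA 1321-1618 array and under the constant scalings. The median of the list was -0.09, and 10 of the 19 genes did not pass the test.

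Blood cell and phagocytosis genes were higher. Of 20 measured phagocytic and scavenger receptors 15 rose and none fell, with a median of 0.94. NimC1, a receptor for bacteria on plasmatocytes, read 11882 and 13106 with dsRNA 1321-1618, against 2433, 2645, 2178 and 2409 with eGFP, a change of 2.37 (SE 0.09, adjusted p = 2.84e-10). Sr-CIV, a scavenger receptor, read 1107 and 1100, against 150 to 247 with eGFP, a change of 2.53. Sr-CIII changed by 3.22 from an eGFP mean below the filter, which it passed only through the Tip60 dsRNA arrays. eater, a related phagocytic receptor, and crq, the CD36-type receptor Croquemort, both changed by 0.71. Under the 3 constant scalings 9 or 10 of the receptors were called higher and none lower, with eater and crq no longer among the calls. Sr-CIII was lost without either dsRNA 1321-1618 array and crq without replicate 1.

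Of 25 measured hemocyte markers 19 rose and 1 fell, with a median of 0.49 as deposited and of -0.08 to 0.10 under the 3 constant scalings, which left 5 called higher. Hml, the clotting protein hemolectin, read 25877 and 32870 with dsRNA 1321-1618, against 16594, 19952, 18084 and 16342 with eGFP, a change of 0.72. The master regulator srp, a GATA factor, changed by 0.44 as deposited but by -0.02 and -0.13 with the hybridization and poly-A spike-ins, and was lost without replicate 1 of dsRNA 1321-1618. PPO1, a prophenoloxidase of crystal cells, changed by -0.35 with overlapping arrays, and was lost without that replicate or eGFP array 2-1, 2-2 or 3-1. Summed over the marker list, signal ranged from 457995 to 516682 with dsRNA 1321-1618 and from 311737 to 359585 with eGFP. SL2 cells thus carried their blood-cell markers in both conditions, and gcm and gcm2, regulators of early plasmatocytes, were below the filter.

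Markers of other cell types were mostly dim. Of 6 measured neuron, 6 glia, 6 muscle, 6 fat body, 2 gut, 8 germline, 7 photoreceptor and 9 epithelial markers, 6 in all rose and 4 fell. Summed signal of the neuron markers was 2202 to 2868 with dsRNA 1321-1618 and 1827 to 2116 with eGFP, and that of the fat body markers 2375 to 2497 and 1919 to 2050. The germline sums did the opposite, at 8515 to 8638 and 8655 to 9345. The sums include genes below the filter: 9 of 15 neuron, 3 of 9 fat body and 3 of 11 germline markers on the array. Background signal there was higher with dsRNA 1321-1618. The neuron and fat body medians, both 0.42 as deposited, were -0.15 to 0.02 and -0.15 to 0.03 under the constant scalings. The part of these markers in the other results was not tested.

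Antimicrobial genes rose with the receptors. Of 11 measured antimicrobial peptides and lysozymes 7 rose and none fell, with a median of 1.22. Drs, the antifungal peptide drosomycin, read 7775 and 6467 with dsRNA 1321-1618, against 1411, 1387, 1327 and 1627 with eGFP, a change of 2.31 (SE 0.10, adjusted p = 1.2e-09). AttD, an attacin, read 2687 and 2429, against 516 to 727, and Mtk, metchnikowin, 2906 and 2563, against 662 to 873. Their changes were 2.00 and 1.76, and no arrays overlapped. Under the 3 constant scalings 4 or 5 of the 11 were called higher.

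In the Imd and Toll pathways that induce those peptides, 8 of 29 genes rose and 1 fell as deposited. pirk, an Imd inhibitor, changed by 1.22, the receptor Tl by 1.00 and its adaptor Myd88 by 0.81. The NF-kappaB factors Rel and dl changed by 0.69 and 0.64. Second probe sets of Tl and dl, at 0.61 and 0.34, were not called. Rel read 9365 and 10332 with dsRNA 1321-1618, against 6545, 6337, 6022 and 5569 with eGFP. Of 17 JNK and TNF signalling genes 9 rose and 1 fell. Traf6, an adaptor, puc, the phosphatase that limits JNK, and kay, the Fos subunit of AP-1, changed by 0.71, 0.70 and 0.65. wgn, a TNF receptor, changed by -0.68. The medians of 0.16 for Imd and Toll and 0.28 for JNK and TNF were negative under the 3 constant scalings, where at most 2 and 0 genes were called higher. Without replicate 1 of dsRNA 1321-1618, 3 JNK and TNF genes were higher, and pirk, Traf6 and kay were lost.

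Genes of lysosomes, matrix and adhesion also included more rises than falls as deposited. Of 24 lysosomal genes 11 rose and 2 fell. LManI, a lysosomal alpha-mannosidase, read 972 and 832 with dsRNA 1321-1618, against 349, 244, 233 and 230 with eGFP, a change of 1.79 (SE 0.19, adjusted p = 1.1e-05). Gal, a beta-galactosidase, changed by 1.74 and Npc2g, a sterol-binding protein, by -0.50. Of 24 autophagy genes 7 rose and 1 fell, with Atg18b and the kinase Atg1 at 0.67 and 0.60. Of 18 basement membrane genes 11 rose and 1 fell, among them Mp, a multiplexin collagen, at 1.81, and the collagen IV genes Col4a1 at 0.49 and vkg at 0.38. Gal was lost without replicate 2 of dsRNA 1321-1618 and under both spike-in scalings, and Npc2g without that replicate or eGFP array 2-1, 2-2 or 3-2. Mp was lost without replicate 1, Col4a1 without replicate 2, and vkg without replicate 2 or eGFP array 2-1, 3-1 or 3-2. Under the 3 constant scalings 1 to 3 lysosomal, 0 autophagy and 2 basement membrane genes were called higher, and their medians were negative. Basement membrane rises numbered 7 and 4 without replicate 1 and replicate 2 of dsRNA 1321-1618, and without replicate 2 autophagy rises numbered 3.

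Of 19 integrin and adhesion genes 6 rose and 1 fell. ItgaPS4, an integrin alpha subunit, read 931 and 934 with dsRNA 1321-1618, against 156, 150, 158 and 217 with eGFP, a change of 2.47 (SE 0.17, adjusted p = 1.65e-07). Nrg, the adhesion molecule neuroglian, read 5203 and 4748, against 1668 to 1958, a change of 1.44. Both were above every eGFP array, and 3 of the 19 were called higher under each constant scaling, with a median of -0.14 to 0.04 in place of 0.43. Of 8 tubulins 3 rose and none fell, with 1 or 2 rises and 1 fall under the constant scalings. alphaTub85E and betaTub60D, isotypes regulated in development, changed by 2.16 and 1.08, the second not called under the hybridization scaling. Of 20 actin and myosin genes 5 rose, at most 2 under the constant scalings, with sn, the bundling protein fascin, at 1.36. Without replicate 1 of dsRNA 1321-1618 that count was 3 and sn was lost.

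**Figure D4:**
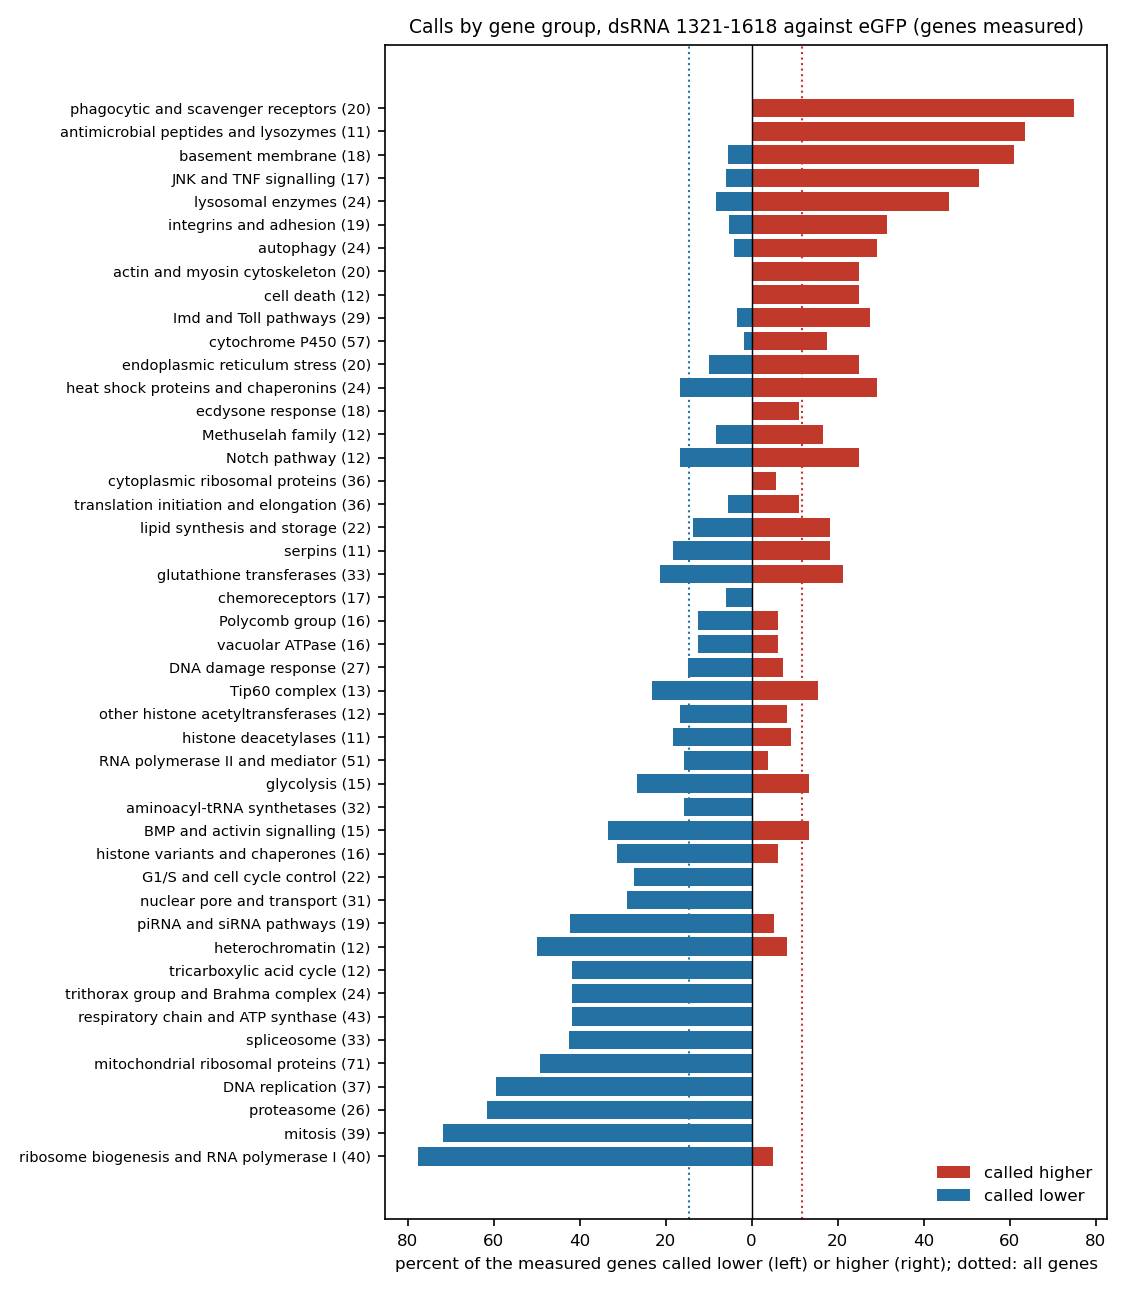
Percent of the measured genes of each group called lower (left, blue) and higher (right, red) with dsRNA 1321-1618 against eGFP, for groups with at least 10 measured genes (number in brackets); dotted lines mark 11.8% higher and 14.6% lower over all genes. Ribosome biogenesis, mitosis and the proteasome stand at the bottom with mostly falls, and phagocytic receptors and antimicrobial peptides at the top with mostly rises; under the 3 constant scalings those receptors and peptides kept more rises, while JNK and TNF signalling and lysosomal enzymes had more falls.

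Other families split. Of 57 cytochrome P450 genes 10 rose and 1 fell, and 4 to 6 rose under the constant scalings, with Cyp6a2, linked to insecticide resistance, at 2.70 and Cyp310a1 at -0.45. Of 33 glutathione transferases 7 rose and 7 fell, and 0 or 1 rose under the constant scalings, with GstD6 at 1.37 and GstD7 at -0.98. In the Methuselah family, mthl4 read 7484 and 6222 with dsRNA 1321-1618, against 1347, 1185, 1219 and 1263 with eGFP, a change of 2.45, and mthl5 read 374 and 377, against 781 to 916, a change of -1.15. Of 11 serpins, which inhibit proteases, Spn88Eb rose by 2.26 and Spn77Ba changed by -0.45. In BMP signalling the ligand dpp changed by 1.10 (not called under the hybridization scaling) while its receptors tkv and put changed by -0.46 and -0.41. The vacuolar ATPase, with 1 rise and 2 falls among 16 subunits, did not follow the lysosomal enzymes. Of 24 heat shock proteins and chaperonins 7 rose and 4 fell, all by less than 1 on the log2 scale, and none rose under the constant scalings. Without replicate 1 or replicate 2 of dsRNA 1321-1618 the rises numbered 2 or 4 for the glutathione transferases and 4 or 3 for the heat shock proteins and chaperonins. Heat shock rises numbered 4 without eGFP array 3-2, and P450 rises 6 without replicate 2 of dsRNA 1321-1618. Cyp6a2, Cyp310a1 and GstD6 were each lost without either dsRNA 1321-1618 array, GstD6 also under the constant scalings and Cyp310a1 without eGFP array 2-2, and Spn77Ba was lost without replicate 1.

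Against the other Tip60 dsRNAs, 1321-1618 differed at 4 probe sets, 0.0355% of those tested, by limma, while 911 had an unadjusted p under 0.05. The count was 8 and 7 without replicate 1 and replicate 2 of dsRNA 1321-1618, and 9 without eGFP array 3-2. For all 3 dsRNAs the changes were set against the same 4 eGFP arrays, so their values are not independent. Against eGFP, 2492 probe sets were called with 190-807 and 3060 with 603-1116. mthl2, for example, changed by 5.24 with 1321-1618, 4.99 with 190-807 and 5.29 with 603-1116. piwi changed by -1.20, -1.16 and -1.01, and Drs by 2.31, 1.74 and 2.07. Over the named genes the median width of the 95% interval to either side of the difference between 1321-1618 and the other dsRNAs was 0.24, so differences much smaller than that could not be resolved for a typical named gene. These intervals are not adjusted for the number of probe sets tested, so larger differences could also go uncalled.

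Of the 12 genes that rose most, 11 were called with 190-807 and 11 with 603-1116. Of the 12 that fell most, 3 were called with 190-807 and 5 with 603-1116. These 12 include Tip60 itself, the target of each of these dsRNAs, so its fall is no separate shared response. For CG13062, CG31820, tmod and CG32847 the difference from the other dsRNAs was -3.39, -2.37, -2.26 and -2.08, with 95% intervals that exclude 0 but adjusted p of 0.222 to 0.533. The 12 and 12 genes were chosen on the change with 1321-1618, so a smaller change with the other dsRNAs is in part built into the choice.

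larp, a La-related RNA-binding protein that acts on translation, had the deepest fall, from 1 of its 3 probe sets. That probe set read 19.6 and 27.3 with dsRNA 1321-1618, 243 and 134 with 190-807, 213 and 219 with 603-1116, and 152, 183, 232 and 293 with eGFP. The other dsRNAs overlapped eGFP and 1321-1618 stood below all. The change against eGFP was -3.17 (SE 0.36, adjusted p = 2.38e-05) and the difference from the other dsRNAs -3.09 (95% interval -3.87 to -2.31, adjusted p = 0.0032). Its other probe sets did not follow: they read 1694 and 1704 with 1321-1618, against 1657 to 1983 with eGFP, and 294 and 239, against 143 to 224. Their changes were -0.14 (adjusted p = 0.507) and 0.57 (adjusted p = 0.198). The mean of the first probe set, 23.5 with 1321-1618, lay below the filter, and whether the probe set shares sequence with the dsRNA was not tested, since neither sequence was used here.

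CG3740 read 99.0 and 107 with dsRNA 1321-1618, 322 and 273 with 190-807, 464 and 359 with 603-1116, and 224, 231, 231 and 279 with eGFP. It was lowest with 1321-1618 and at or above the eGFP level with the others. The changes against eGFP were -1.22, 0.30 and 0.76, and the difference of 1321-1618 from the others was -1.75 (95% interval -2.21 to -1.30, adjusted p = 0.0032). A probe set with no gene name in the annotation used read 3502 and 4098, against 7406, 7001, 6742 and 7052 with eGFP. Its difference from the other dsRNAs was -0.51 (adjusted p = 0.0433), and was lost without replicate 1 of dsRNA 1321-1618, without eGFP array 2-2 or 3-1 and under the constant scalings.

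Idgf2, a secreted chitinase-like growth factor, was the one gene higher with 1321-1618 than with the other dsRNAs. It read 47630 and 56528 with 1321-1618, against 31648, 36110, 34424 and 32795 with eGFP. Its change against eGFP was 0.62 (SE 0.10, adjusted p = 0.000355), against -0.43 with 190-807 and -0.19 with 603-1116, and it was not called under the constant scalings. The difference from the other dsRNAs was 0.93 (95% interval 0.72 to 1.14, adjusted p = 0.00165). Its neighbours and relatives Idgf1 and Idgf3 showed no such difference, at 0.10 (95% interval -0.11 to 0.30) and 0.00 (-0.19 to 0.19). Without an intensity trend in the variance, larp, Idgf2 and the unnamed probe set no longer differed from the other dsRNAs at the threshold and CG3740 did.

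**Figure D5:**
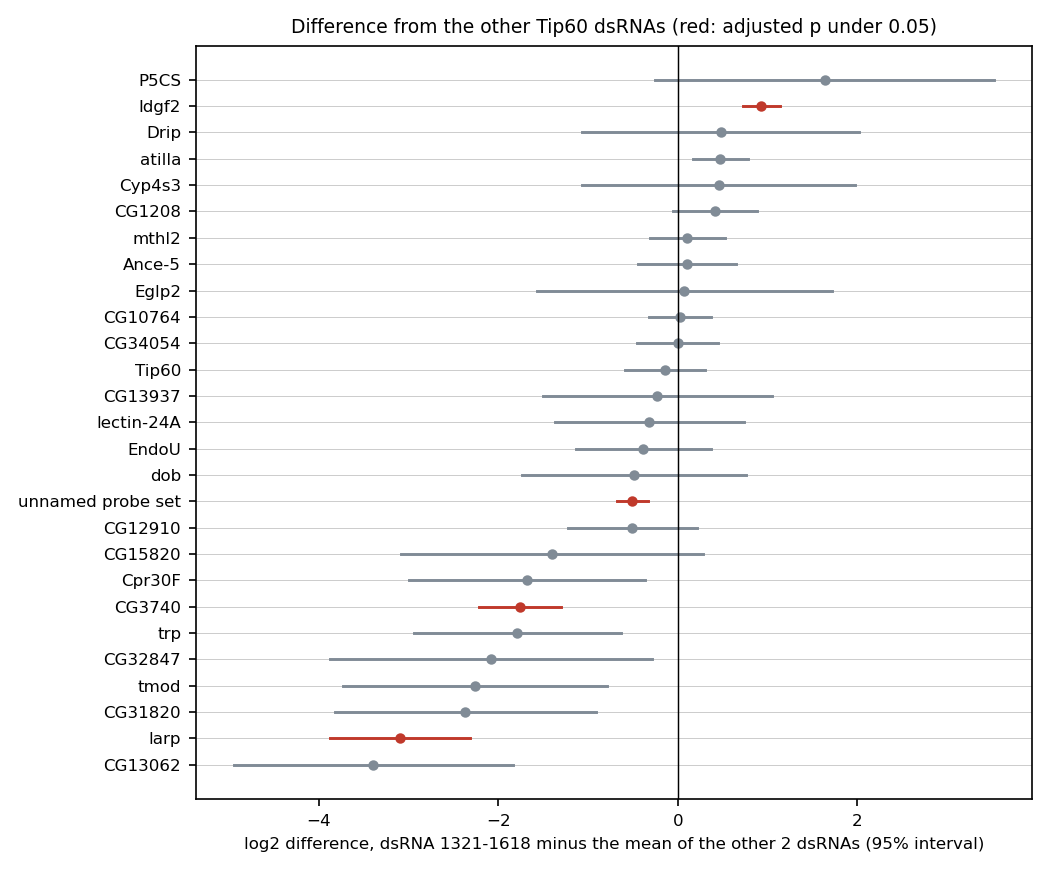
Log2 difference between dsRNA 1321-1618 and the mean of the other 2 Tip60 dsRNAs (points) with 95% intervals (lines) for the 12 genes that rose most, the 12 that fell most and the probe sets that differed; red marks adjusted p under 0.05. The intervals of mthl2, CG34054 and Tip60 hold 0, and those of larp (-3.87 to -2.31), CG3740 and Idgf2 do not.

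Called genes also formed runs along the chromosomes. Only measured genes were counted, so genes that were not measured may lie between the members of a run. Over 8250 genes placed in their order on the chromosomes, 52 runs of at least 3 neighbours were called in 1 direction, 23 upward and 29 downward, where 11.8% of all genes were called higher and 14.6% lower. Whether these shares alone would give as many runs was not tested. A downward run of Nsun2, dgt4 and Tip60 includes the targeted gene itself. The longest downward run held 5 genes, CG5114, mnd, mRpL39, Prosbeta2 and Reck, at -0.63 to -0.38. An upward run of 5 held CG5888, Idgf1, Idgf2, Idgf3 and dac, at 0.30 to 0.62 as deposited, although all but Idgf2 turned negative under 1 or more of the constant scalings, and another held CG6569, Cby, CG31174, CG31431 and CG6656, at 0.70 to 1.71. One of several runs of 4, with Atg8a, BTBD9, CG15211 and Ant2, rose by 0.35 to 0.70 as deposited, and all but CG15211 turned negative under 1 or more of the constant scalings. Prosbeta2, Cby and Ant2 were lost without replicate 1 of dsRNA 1321-1618, Reck, CG5888 and BTBD9 without replicate 2, and Idgf1 and dac without either. eGFP arrays also decided Idgf1 (2-1 or 3-1), dac (2-1, 2-2 or 3-1) and Ant2 (3-2). Of the genes in these runs, CG5114, Reck, Prosbeta2 and CG31174 kept their calls under the constant scalings.

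The next 3 runs, also of 4 genes, were picked after their values were seen. CG34054, Drip, CG7763 and Prip, the last another aquaporin, rose by 4.02, 3.40, 1.88 and 0.53, and Prip turned negative under the poly-A scaling. NimB1, NimB2, NimB3 and NimB4, secreted relatives of NimC1, rose by 1.74, 1.51, 0.44 and 1.16, and NimB3 turned negative under both spike-in scalings. Gr93b, Gr93c and Gr93d, annotated as taste receptors, and glec rose by 1.52, 1.35, 0.97 and 1.44. A separate list of other chemoreceptors had 17 measured genes, of which none rose and 1 fell. NimB3 and Gr93c were lost without replicate 1 of dsRNA 1321-1618, and Gr93c, Gr93d and NimB4 under 1 or more of the constant scalings. NimB1 read 906 and 816 with dsRNA 1321-1618, against 252, 202, 291 and 295 with eGFP, and Gr93b read 631 and 686, against 257, 215, 250 and 201. In both cases the depleted arrays were well above the rest.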

How the data were processed

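The authors' deposited signal intensity values, linear and 1 column per array, were made with GCOS 1.4, per the submitters' processing notes, and each array has a 2% trimmed mean of 1000. No source used here gives the probe-level steps. Of 18952 probe sets, 183 controls were left out, as were the lowest 40% by mean log2 signal. Log2 intensities of all 10 arrays were fitted with 4 group means in limma 3.58.1 (R 4.3.3; eBayes with an intensity trend), and probe sets with a Benjamini-Hochberg adjusted p under 0.05 over 11261 were called. The fit was tested on simulated data. The number of arrays limits the precision.

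Gene names came from the platform annotation, updated through a RefSeq table by identifier for 13544 of 13647 probe sets with 1 gene; 402 with several genes and 4720 with none were not named. The 62 gene lists hold 1689 genes, each taken by its brightest probe set. Probe sequences were not used, so binding to paralogs was not screened.

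The members and lists were chosen with earlier results of these data known. Named genes were Tip60 and called complex members; the 12 rises and 12 falls largest in log2 among called, non-overlapping probe sets with 1 gene; the 8 largest rises and falls in signal; up to 2 called members per list in each direction (rises of at least 1, falls of at least 0.4 on the log2 scale); and all that differed from the other dsRNAs. Others, including NimC1, eater, puc, Rel, Mtk, aub and further list members named with a value, were picked after their values were seen. Alternatives changed the arrays, filter, scaling, offset and variance model. A planned search of promoters for motifs was not run, as no genome sequence was used here.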

Additional observations from a re-analysis of the deposited data

Results flagged for a closer look

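Among the named genes, 1 eGFP array stood apart from the other 3 for 12 of 183 genes tested, where chance gives about 1 in 20. For higher arrays, dom read 2876 against 2434 to 2501 on the other eGFP arrays, Cdk2 1214 against 974 to 998, LManI 349 against 230 to 244, ItgaPS4 217 against 150 to 158, TfIIA-S 6531 against 5534 to 5601, CG3740 279 against 224 to 231, Reck 2744 against 1841 to 1929 and CG31431 4774 against 4308 to 4377. For lower arrays, Drip read 6.18 against 53.3 to 61.8, Fkbp12 29348 against 33629 to 34508, RanGAP 3879 against 4289 to 4369 and Mtk 662 against 843 to 873. The outlying array was not the same for all of these genes. Of these 12, Drip was the only gene whose fold against eGFP moved by more than 1.5 times without that array. The cause was not tested.

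By the test of the difference itself, dsRNA 1321-1618 differed from the mean of the other Tip60 dsRNAs at larp (-3.09 on the log2 scale), CG3740 (-1.75), a probe set with no gene name (-0.51) and Idgf2 (0.93). The difference at larp came from 1 of 3 probe sets, and whether that probe set shares sequence with the dsRNA was not tested.

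The spike-in controls, which carry no fly transcript, were higher on the dsRNA 1321-1618 arrays than on the eGFP arrays, by 0.46 (hybridization, 18 probe sets) and 0.57 (poly-A, 27 probe sets) on the log2 scale. Scaling to them left 150 rises (hybridization) and 232 rises (poly-A), against 1255 as deposited. What made the spike-ins differ was not tested.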

How the results depend on the processing

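Of 186 named results, 157 could be recomputed under all 21 alternatives, and 87 of these kept their direction and call under all of them. The other 29 lacked a value under 1 or more, mainly the stricter filter, and 9 of them kept both under the alternatives run. Tip60 kept its call under all 21. Centring on the median, and scaling to hybridization or to poly-A spike-ins, each subtracts a near-constant amount and gave 317, 150 and 232 rises (1255 as deposited); falls were 3545, 1096 and 5161 (1416), and changes of 2-fold or more were 588, 600 and 1072 (377). Lists with more falls than rises numbered 26 as deposited, 50 under the median and 51 under the poly-A scaling. Reversed values were, under the median, dom -0.029, Idgf1 -0.10, vkg -0.015, BTBD9 -0.0020 and Ant2 -0.045; under the hybridization spike-ins, dom -0.088, Eaf6 -0.034, RpL29 -0.020, Idgf1 -0.16, srp -0.018, vkg -0.075, NimB3 -0.012, CG5888 -0.0041, BTBD9 -0.062 and Ant2 -0.10; and under the poly-A spike-ins, dom -0.20, Eaf6 -0.15, RpL27 -0.089, RpL29 -0.13, Arc1 -0.023, pAbp -0.0085, Fer1HCH -0.081, Idgf1 -0.27, Idgf3 -0.030, srp -0.13, Col4a1 -0.076, vkg -0.19, Prip -0.043, NimB3 -0.13, CG5888 -0.12, dac -0.056, Atg8a -0.096, BTBD9 -0.18 and Ant2 -0.22. With eGFP arrays 2-1 and 2-2 alone 925 probe sets fell, and the stricter filter left 221 at 2-fold or more, with fewer probe sets tested. Differences from the other dsRNAs numbered 13 under the poly-A scaling and 1 with no intensity trend (4 in the fit reported). Leaving out 1 array gave 701 to 1205 rises, 806 to 1293 falls, 302 to 384 changes of 2-fold or more and 3 to 9 differences from the other dsRNAs; the fewest rises and falls came without replicate 1 of dsRNA 1321-1618, when the lone array is assumed to vary like the other groups. No paired analysis was possible because the replicate numbers of dsRNA 1321-1618 and eGFP are not shared.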
